A study of Mus musculus with 10 samples.

Results

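The genes described here are 9 that mark hepatic stellate cells or the contractile, matrix-producing myofibroblasts that these cells can become: Lrat, Reln, Pdgfrb, Hgf, Dcn, Acta2, Tagln, Des and Timp1. They were listed by name and are 9 of the 24537 gene symbols in the count table. All 9 passed the filter on low counts that kept 13909 genes for testing. RNA from 10 whole livers of male mice was sequenced, and every mouse had received an AAV8 vector 2 months earlier that carried saCas9 behind the TBG promoter and a guide RNA behind a U6 promoter. TBG drives expression in hepatocytes, so the vector was not designed to edit the stellate cells themselves, and the control mice carried the nuclease too. The young Rosa26 group (n = 3) was injected at 7 months with a guide to the Rosa26 locus and analysed at 9 months. The old Rosa26 group (n = 3) was injected at 23 months and analysed at 25 months. The old Cd44 group (n = 4) had the same ages with a guide to Cd44, a receptor for the matrix sugar hyaluronan: guide 4 in replicates 1 and 2 and guide 2 in replicates 3 and 4. Replicate numbers only name a liver. The labels do not say that each library came from a separate animal, so p-values measure the spread between these libraries only.

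Stellate cells lie between hepatocytes and the sinusoidal endothelium and store vitamin A as retinyl esters in lipid droplets. After injury they can lose these droplets, divide in response to platelet-derived growth factor, and take up a myofibroblast state with smooth muscle actin fibres, collagen secretion and inhibitors of matrix breakdown. Several of the same contractile genes are also made by the smooth muscle of hepatic arteries and portal veins, and Dcn is also made by portal fibroblasts. In whole-liver RNA, more cells of a type and more RNA per cell cannot be told apart.

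RefSeq promoter sequences on GRCm38.p6 were found for 6 of the 9 genes, namely Acta2, Des, Lrat, Reln, Timp1 and Hgf. In the 250 bases before each start, 3 motifs were searched on both strands: the CArG box bound by serum response factor, allowing at most 1 C or G in its A and T core, the E-box CAGCTG, and GGGCGG, bound by Sp1. The motifs do not overlap each other in the windows shown, and capitals mark their matches. The windows of Reln and Lrat are shown because both genes rose with age, that of Des because it is a muscle-type gene, and 30-base sites of Acta2 because they hold its CArG boxes.
Reln (chr5:22344706-22344955, minus strand): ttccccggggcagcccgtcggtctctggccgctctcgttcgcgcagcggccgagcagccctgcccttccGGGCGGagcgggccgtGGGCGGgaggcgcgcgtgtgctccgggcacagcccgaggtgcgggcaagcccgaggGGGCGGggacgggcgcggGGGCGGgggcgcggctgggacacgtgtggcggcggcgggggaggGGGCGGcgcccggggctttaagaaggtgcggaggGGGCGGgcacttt
Lrat (chr3:82903975-82904224, minus strand): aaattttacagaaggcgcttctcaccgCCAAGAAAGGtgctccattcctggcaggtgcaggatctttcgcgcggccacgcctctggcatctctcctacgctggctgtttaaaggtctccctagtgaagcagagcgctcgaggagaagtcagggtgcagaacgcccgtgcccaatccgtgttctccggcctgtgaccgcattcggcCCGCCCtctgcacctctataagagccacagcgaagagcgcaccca
Des (chr1:75360042-75360291, plus strand): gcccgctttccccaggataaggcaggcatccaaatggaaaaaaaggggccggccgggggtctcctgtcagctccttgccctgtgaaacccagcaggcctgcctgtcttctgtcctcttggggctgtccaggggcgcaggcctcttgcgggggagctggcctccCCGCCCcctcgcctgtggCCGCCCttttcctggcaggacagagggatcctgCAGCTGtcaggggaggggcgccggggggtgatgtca
Acta2 site 84 bases before the start (chr19:34255438-34255467, minus strand): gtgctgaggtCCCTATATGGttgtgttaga
Acta2 site 34 bases before the start (chr19:34255388-34255417, minus strand): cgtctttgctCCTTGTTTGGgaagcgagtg
The Reln window held 6 matches to GGGCGG and 80.0% G and C, against 67.2% in Des and 59.2% in Lrat. Both of the latter also held GGGCGG, which on the other strand reads CCGCCC: 2 matches in Des and 1 in Lrat. Among all 32851 RefSeq windows of this length, 32.7% held GGGCGG. The Acta2 window held 2 CArG boxes and 1 CAGCTG, and the Lrat window held 1 CArG box. The RefSeq start used for Acta2 lies inside the GENCODE span of the gene (chr19:34241090-34255590). Both CArG boxes are therefore before that RefSeq start but within the span, not upstream of it. A CArG box by this rule occurred in 8.59% of all windows, and CAGCTG, which Des also held once, in 13.0%. These matches are letters in the sequence and not measured binding.

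Total counts ran from 15821198 to 21710228 per liver. The targeted gene, Cd44, had 16.6, 11.1 and 10.1 CPM (counts scaled to a common library size) in young Rosa26 replicates 1 to 3 and 14.2, 30.0 and 25.9 CPM in old Rosa26 replicates 1 to 3. In the livers labelled as Cd44 knockout it stood at 18.9 and 29.0 CPM for guide 4, and at 17.6 and 13.1 for guide 2, so these overlapped the old Rosa26 livers. The gene's transcript level did not separate these groups, and the last is therefore called knockout-labelled. Old Rosa26 replicate 3 stood apart from the other old livers at 48 on the second principal component, and its library name lies outside the run of the others. Young replicate 3 stood apart in the muscle genes described below, and old Rosa26 replicate 2 in markers of immune cells.

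On a scale of CPM per kilobase of exon, which allows genes to be compared, Dcn had the highest level of the 9 in every group, with 18.4 in young, 36.7 in old Rosa26 and 28.0 in knockout-labelled livers. Tagln came next, with means of 8.55, 7.15 and 5.58 CPM per kilobase. In young livers the means then ran in the order Acta2 (6.57), Des (2.01), Lrat (1.72), Pdgfrb (1.46), Timp1 (0.79) and Reln (0.75), and Hgf was lowest at 0.11. The young Acta2 mean rested on replicate 3 and had an SD of 8.47 CPM per kilobase, so its place was not separated from its neighbours. In old Rosa26 livers Lrat (3.93) and Pdgfrb (3.29) stood above Acta2 (3.13) in mean, but the single livers of Lrat and Pdgfrb ranged from 2.93 to 5.09 and from 1.98 to 4.25 CPM per kilobase, so these neighbours overlapped as well. Reln, whose exons sum to 23738 bases, had a low level per kilobase although its CPM was the second highest of the 9 in old Rosa26 livers.

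**Figure D1:**
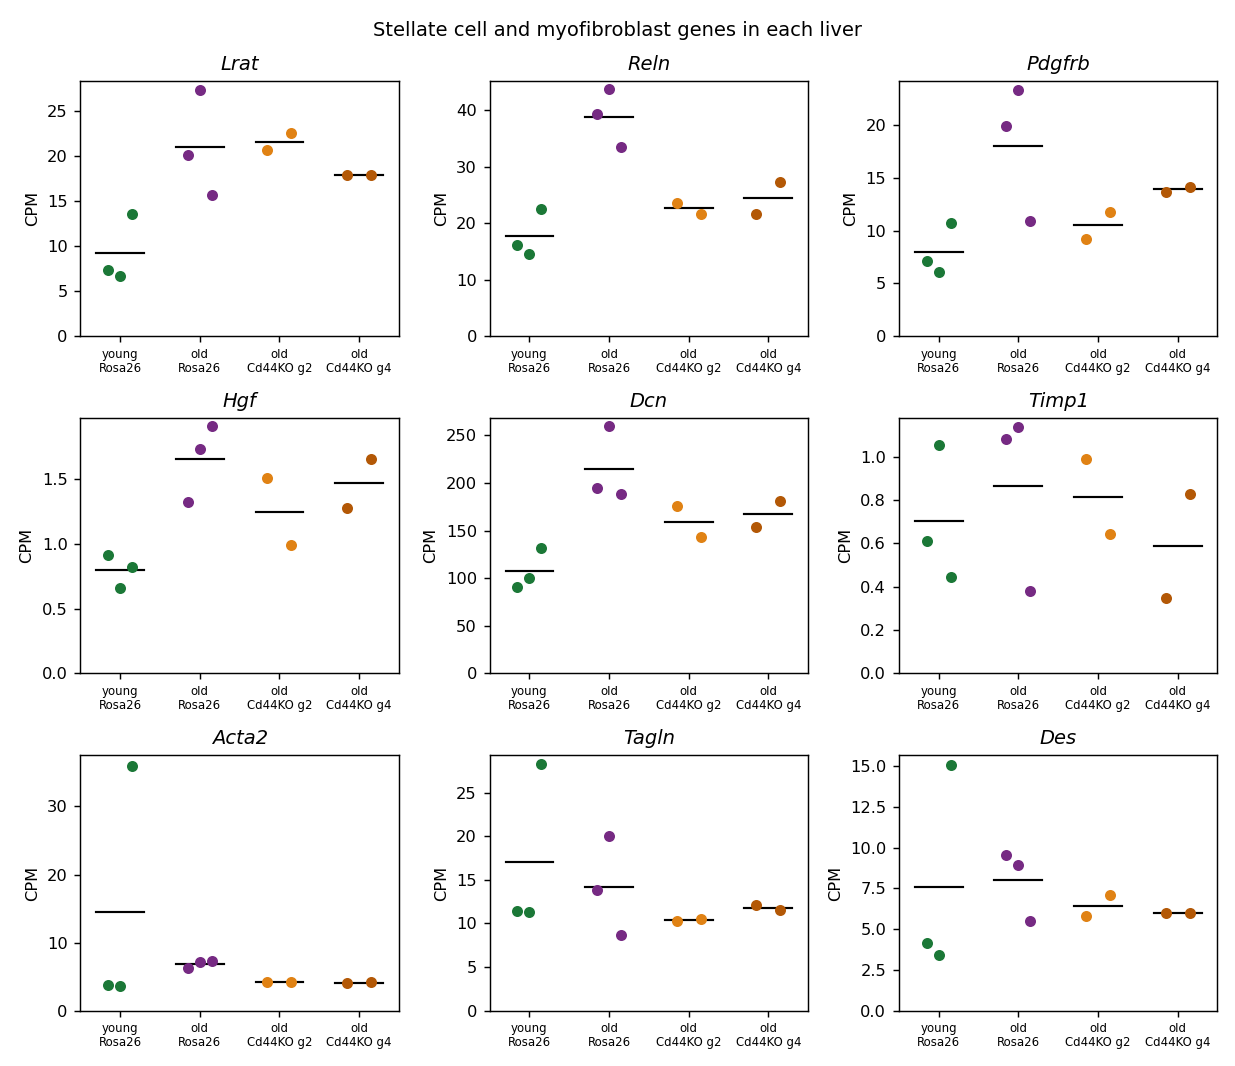
CPM of each gene (vertical axis, linear, from 0) in each liver (dots), by group along the horizontal axis with the knockout-labelled livers split by guide; horizontal lines are the means of each set of dots. Old Rosa26 dots lie above all young dots for Lrat, Pdgfrb, Reln, Hgf and Dcn, and in the panels of Acta2, Tagln and Des 1 young liver, replicate 3, is the highest of all 10.

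The first comparison asked how these genes differ between old and young Rosa26 livers. Of the 9, 5 were called higher in old livers at an adjusted p under 0.05 and none lower, beside 22.8% of all 13909 genes called, 14.1% higher and 8.66% lower. The 5 were Lrat, Reln, Pdgfrb, Hgf and Dcn, with fitted changes of 1.99-fold to 2.28-fold. In each of them every old Rosa26 liver was above every young liver, a pattern held by 19.7% of all genes in that direction. The 4 others, Acta2, Tagln, Des and Timp1, were not called. The median log2 fold change of the 9 was 0.99, against 0.04 over all genes tested.

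Lrat (chr3:82892579-82903973, minus strand) encodes lecithin retinol acyltransferase, which makes the retinyl esters that stellate cells store. Young replicates 1 to 3 had 7.34, 6.72 and 13.6 CPM and old Rosa26 replicates 1 to 3 had 20.1, 27.2 and 15.7 CPM. Young replicate 3 was the highest young liver and old replicate 3 the lowest old one, and these lay close together without crossing. The log2 fold change of Lrat was 1.19 (SE 0.27), with an adjusted p of 0.0145 by edgeR's quasi-likelihood test with Benjamini-Hochberg adjustment, the test used for every adjusted p below unless another is named.

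Reln (chr5:21884454-22344702, minus strand) encodes reelin, a large secreted glycoprotein that stellate cells make in the liver. It had 16.2, 14.5 and 22.4 CPM in the young livers and 39.3, 43.6 and 33.4 CPM in the old Rosa26 livers. The lowest old liver was well above the highest young liver. Its log2 fold change of 1.13 had an SE of 0.18 and an adjusted p of 0.00762. The call for Reln held in all 12 alternative analyses, with adjusted p at most 0.0413.

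Pdgfrb (chr18:61045150-61085061, plus strand) encodes the receptor through which platelet-derived growth factor B drives division and migration of stellate cells and pericytes. Its CPM values were 7.16, 6.07 and 10.7 in young livers and 19.9, 23.3 and 10.9 in old Rosa26 livers. Old replicate 3 was barely above young replicate 3, so the absence of overlap rests on a narrow margin. The log2 fold change of Pdgfrb was 1.17 (SE 0.30), with an adjusted p of 0.0203.

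Dcn (chr10:97479609-97518143, plus strand) encodes decorin, a small leucine-rich proteoglycan that binds collagen fibrils and transforming growth factor beta (TGF-beta). It measured 91.2, 99.8 and 131.7 CPM in young livers and 194.7, 259.7 and 188.7 CPM in old Rosa26 livers. Old replicate 2 was the highest, and the other old livers lay close to each other and above all young livers. The log2 fold change of Dcn was 0.99 (SE 0.18), with an adjusted p of 0.00905.

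Hgf (chr5:16553495-16620152, plus strand) encodes hepatocyte growth factor, a growth signal that stellate cells and other non-parenchymal cells send to hepatocytes. It was sparse, at 0.917, 0.659 and 0.823 CPM in young livers and 1.33, 1.73 and 1.91 CPM in old Rosa26 livers. Over all 10 livers this came to 10 to 40 counts, and a count of 10 has an exact Poisson 95% interval of 4.80 to 18.4, which covers counting error only. All old Rosa26 livers were above all young ones. Its log2 fold change of 1.04 (SE 0.31) had an adjusted p of 0.0363, and it stayed past the threshold in 3 of 12 alternative analyses, with adjusted p from 0.0345 to 0.129.

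Single livers decided several of these calls. With young replicate 1 or old replicate 2 left out, 2 of the 9 genes were called, beside 11.9% and 7.35% of all genes in those fits, and with young replicate 2 left out only Reln was, beside 2.8%. Lrat and Pdgfrb then had adjusted p of 0.0513 and 0.0647 without young replicate 1, 0.0685 and 0.0875 without young replicate 2, and 0.0571 and 0.0786 without old replicate 2, while their log2 fold changes ran from 0.95 to 1.10.

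The contractile genes behaved otherwise. Acta2 (chr19:34241090-34255590, minus strand) encodes alpha smooth muscle actin, the usual marker of activated stellate cells and of vascular smooth muscle. Its values were 3.79, 3.56 and 35.9 CPM in young livers and 6.19, 7.11 and 7.29 CPM in old Rosa26 livers. Young replicate 3 was the highest of all livers, and the other young livers were below every old Rosa26 liver. The log2 fold change of Acta2 was -1.07 (SE 0.69), with an adjusted p of 0.273. Leaving out young replicate 3 gave 0.90 (SE 0.20, adjusted p 0.0302), so this liver set the direction. Actin genes are near-identical in sequence, and the sources used here do not say how reads shared by them were counted, so the level of Acta2 is uncertain to that extent.

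Des (chr1:75360329-75368579, plus strand) encodes desmin, the muscle-type intermediate filament long used to stain rodent stellate cells. It had 4.16, 3.43 and 15.1 CPM in young livers and 9.53, 8.93 and 5.48 CPM in old Rosa26 livers. Here too young replicate 3 was the highest of all livers and the other young livers were below the old ones. Its log2 fold change was 0.08 (SE 0.46, adjusted p 0.917) over all livers and 1.07 (adjusted p 0.0372) without young replicate 3.

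Tagln (chr9:45929619-45936058, minus strand) encodes transgelin, an actin-binding protein of smooth muscle and myofibroblasts. Its levels were 11.4, 11.3 and 28.3 CPM in young livers and 13.9, 20.05 and 8.72 CPM in old Rosa26 livers. Young replicate 3 was again highest, and old replicate 3 was the lowest of the 6. Its fitted log2 change was -0.26 (SE 0.36, adjusted p 0.627), and 0.32 (adjusted p 0.463) without young replicate 3. Tagln exons share 1241 bases with the antisense gene Gm48529 and 108 with Pcsk7, and the use of strand in counting is not given in the sources used here. Smaller shared stretches lie in Des (220 bases with Gm15179), Reln (246 bases with Gm10475) and Hgf (484 bases with Gm43489).

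Timp1 (chrX:20870166-20874735, plus strand) encodes a secreted inhibitor of matrix metalloproteinases that activated stellate cells make in quantity. It was near the limit of counting, at 0.612, 1.05 and 0.443 CPM in young livers and 1.08, 1.14 and 0.381 CPM in old Rosa26 livers. These values overlapped fully, with old replicate 3 lowest. Its fitted log2 change was 0.31, with a 95% interval from -0.83 to 1.44 and an adjusted p of 0.694. Over all 10 livers Timp1 had 6 to 25 counts, with exact Poisson 95% intervals of 2.20 to 13.1 and 16.2 to 36.9 counts.

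**Figure D2:**
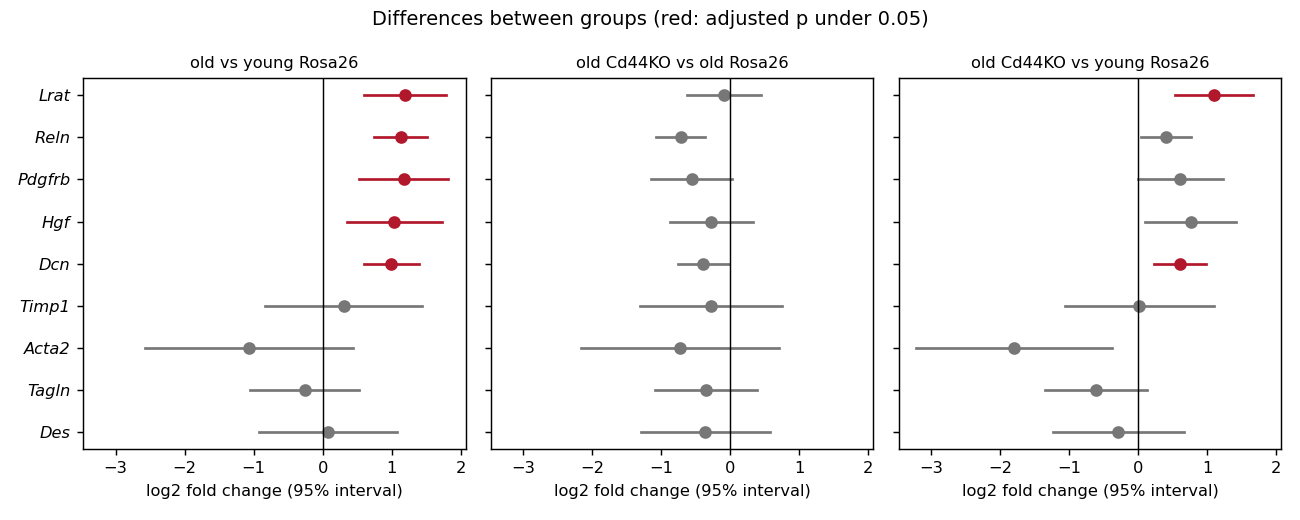
Log2 fold change of each gene (horizontal axis) with its 95% interval (line) in 3 comparisons, with red for an adjusted p under 0.05. For old against young Rosa26 the 5 red genes, Lrat, Pdgfrb, Reln, Hgf and Dcn, sit between 0.99 and 1.19, while no gene is red for knockout-labelled against old Rosa26.

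Markers of other cell types moved beside these genes. The summed CPM of 8 markers of vascular smooth muscle was 59.6 in young replicate 3 and 8.04 to 9.54 in the other young livers, against 16.4 to 21.7 in old Rosa26 and 10.8 to 12.4 in knockout-labelled livers. Acta2 and Tagln were high in the same liver, as were Myh11, the smooth muscle myosin heavy chain, at 26.4 CPM against 2.32 and 1.25, and Cnn1, calponin, at 7.66 CPM against 0.245 and 0.132. Myocd, the smooth muscle coactivator, had no count in 7 of the 10 livers. The sum of 11 portal fibroblast markers was 45.2 CPM in young replicate 3, 14.4 and 19.7 in the other young livers and 30.5 to 40.5 in old Rosa26 livers. None of these markers is among the 9 genes, and 6 of the smooth muscle markers are also in the list of contractile genes described below. The part of these cells in the result was not tested.

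For the stellate genes, the sum of 14 stellate markers was 239 to 356 CPM in young, 437 to 675 in old Rosa26 and 389 to 456 in knockout-labelled livers. Of these markers 6 are among the 9 genes described here, and the other 8 alone summed to 112 to 162, 181 to 310 and 174 to 227 CPM in the same order. Single genes weighed most in these sums: Dcn was the largest part of the first in every liver, and Ecm1 of the second. Ecm1 had 73.6 to 95.8 CPM in young, 98.2 to 173.5 in old Rosa26 and 99.4 to 128.5 in knockout-labelled livers. The sum of 8 sinusoidal endothelial markers, at 132 to 187 CPM in young and 273 to 290 in old Rosa26 livers, moved the same way, and so did that of 6 Kupffer cell markers, at 149 to 219.9 and 275 to 915 CPM. Markers of neutrophils, 4 of 4 tested called higher, had a median log2 fold change of 5.67, those of T cells (3 of 5) 2.32, those of B cells (3 of 4) 2.16 and those of monocyte-derived macrophages (3 of 6) 1.81. Old Rosa26 replicate 2 stood out among them, with a neutrophil sum of 251 CPM against 13.4 and 15.1 in the other old Rosa26 livers and 3.36 to 8.87 in young livers, and a T cell sum of 41.9 CPM against 2.77 and 6.98 and 2.34 to 3.43. The same liver had the highest level of Lrat, Pdgfrb, Reln and Dcn. Without it edgeR called 0 of 4 neutrophil, 0 of 5 T cell, 1 of 4 B cell and 0 of 6 macrophage markers higher. In the same order 2, 2, 4 and 3 had an unadjusted p under 0.05 (29% of all genes), and the medians were 2.04, 0.96, 2.23 and 1.09. The share of all genes called higher was 14.1% with this liver and 5.04% without it. Hepatocyte markers summed to 94958 to 123687 CPM in young and 79914 to 108190 CPM in old Rosa26 livers. Their part in the age differences was not tested. No defining stellate marker was at 0 in any liver.

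**Figure D3:**
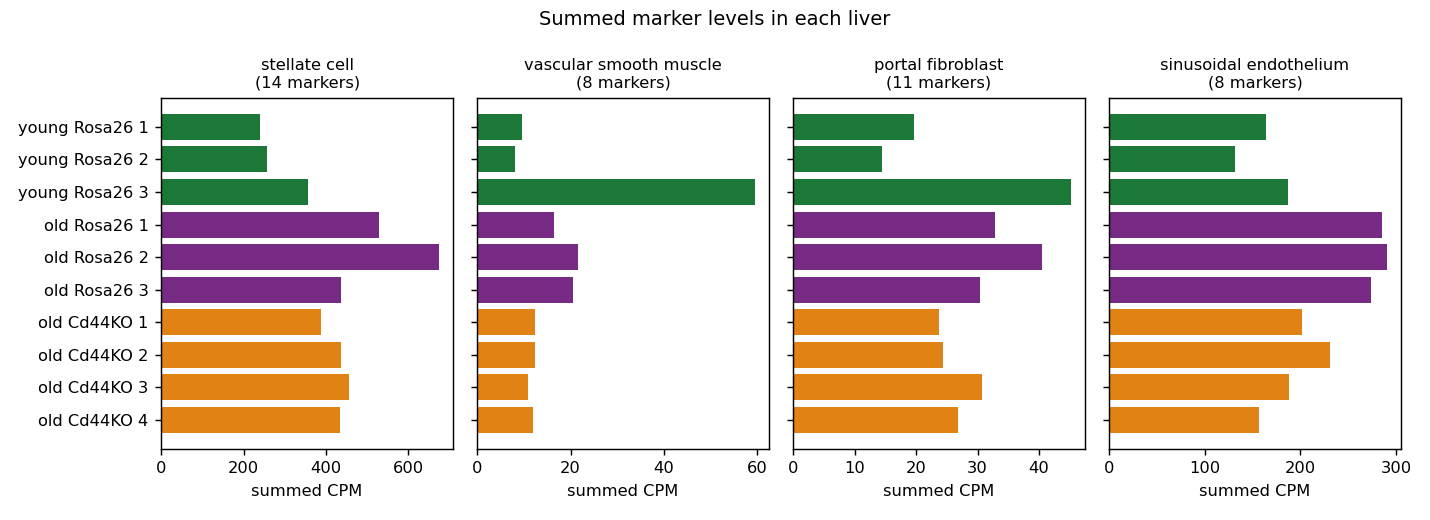
Summed CPM (horizontal axes, linear, from 0) of the marker genes of 4 cell types, with 1 horizontal bar for each of the 10 livers, coloured by group. Stellate sums reach 437 or more in every old Rosa26 liver and at most 356 in young livers, while the smooth muscle bar of young replicate 3 (59.6) exceeds all others.

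The other genes of these pathways were read from 10 lists. Over all genes 14.1% were called higher with age, and this share was 7.08% without young replicate 3, 20.8% without old replicate 3 and 5.04% without old replicate 2. Of 25 further genes of quiescent stellate cells, 23 were tested, 17 were called higher in old Rosa26 livers and none lower, with a median log2 fold change of 1.04. Tcf21, a transcription factor of stellate cells, was called at a log2 fold change of 2.08 (1.56 ± 0.36 CPM in young and 6.61 ± 3.73 in old Rosa26 livers, SD, n = 3 each). Pth1r, the parathyroid hormone receptor, reached 1.71, Lhx2, a regulator that holds stellate cells quiescent, 1.55 and Sod3, the extracellular superoxide dismutase, 1.41. Each of these 4 had no overlap between the groups. Without young replicate 3 the count was 16 of 24 tested, without old replicate 3 it was 18 of 23 with 1 lower, and without old replicate 2 it was 8 of 23.

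Among 19 tested genes of retinoid storage and signalling, beside Lrat, 5 were higher and 2 lower. Pnpla3, a lipase that also acts on retinyl esters, had the highest change at 3.18, with 3.63 ± 2.02 CPM in young and 33.0 ± 27.0 CPM in old Rosa26 livers (SD, n = 3 each), and these overlapped. Lpl, lipoprotein lipase, rose by 1.94 and the retinoic acid synthase Aldh1a3 by 1.86 on the log2 scale. Aldh1a3 was sparse, at 0.061 to 0.38 CPM in young and 0.54 to 0.87 CPM in old Rosa26 livers. It passed the filter on low counts only through the old Rosa26 livers, so its call is not separate from that choice. Plin2, a lipid droplet coat protein abundant in hepatocytes, fell by 1.29. The median of this list was 0.04, as over all genes. Without old replicate 2 the counts were 2 higher and 0 lower, and without old replicate 3 they were 5 and 4.

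For Pdgfrb, 4 of 5 listed ligand and receptor genes were tested and 2 were higher: Pdgfb, its ligand, at 1.27 (overlapping groups) and the sister receptor Pdgfra at 0.98 (no overlap). For Reln, only Vldlr of 3 listed receptors and adaptors passed the filter, and this receptor was higher by 1.63, from 0.841 ± 0.306 to 2.62 ± 0.349 CPM (SD, n = 3 each). For Hgf, 1 of 11 genes of its activation and reception was higher, the urokinase gene Plau at 2.18, while Met, the receptor itself, had a log2 fold change of -0.01. Without young replicate 3 none of these 11 was called by edgeR, with 3 at an unadjusted p under 0.05 (32.2% of all genes in that fit). Without old replicate 2 edgeR called 1 gene of the PDGF list, none of 11 HGF genes and neither of the 2 reelin receptors and adaptors then tested, with 1 of each of the latter lists at an unadjusted p under 0.05 (29% of all genes).

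Small leucine-rich proteoglycans, the family of Dcn, had 4 of 8 tested members higher and none lower. Podn, podocan, changed by 1.32, Prelp by 1.26, Lum, lumican, by 1.21 and Bgn, biglycan, by 1.11, each without overlap. Without old replicate 2 the count was 2 of 9. Of 5 fibrillar collagen genes, Col5a1 (1.23) and Col3a1 (1.04) were higher and the others were not called. Without young replicate 3 this count was 4, without old replicate 3 also 4, and without old replicate 2 edgeR called 0, with 2 at an unadjusted p under 0.05. Inhibitors and proteases of the matrix, the setting of Timp1, had 5 of 17 tested genes higher: Adamts5 (2.31), Mmp2 (1.85), Mmp11 (1.71), Mmp13 (1.51) and the membrane-bound Mmp14 (0.91). Without old replicate 3, 9 of 18 were higher and 1 lower, and without old replicate 2 edgeR called 0 of 17, with 6 at an unadjusted p under 0.05. None of the 5 genes called over all livers was an inhibitor, and Timp2 and Timp3 were not called, at 0.77 (adjusted p 0.084) and 0.56 (adjusted p 0.0809). Over all livers 16 of the 17 were fitted higher and 13 had an unadjusted p under 0.05 in edgeR, beside 38.5% of all genes. The calls alone therefore do not set proteases apart from inhibitors.

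Ligands, receptors and targets of TGF-beta, which induces Acta2 and collagen genes in stellate cells, had 4 of 21 tested genes higher and none lower. These were the ligand Tgfb1 (1.57), the extracellular target Tgfbi (1.47), the co-receptor Tgfbr3 (0.90) and the latent binding protein Ltbp4 (0.90). The count was 7 without young replicate 3, 8 without old replicate 3 and 2 without old replicate 2. Of 17 other contractile and smooth muscle genes, 3 were higher, namely Cnn2 (1.26), Smtn (0.96) and Mylk (0.65), and the list's median was -0.05. Without young replicate 3 the count was 6 and the median 0.78: Myh11 then had a log2 fold change of 1.39 (adjusted p 0.0418) in place of -1.08, and the myosin light chain Myl9 1.36 (adjusted p 0.0372) in place of -0.21. Without old replicate 2 the contractile count was 2 of 18, and without old replicate 3 it was 4 higher and 2 lower.

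**Figure D4:**
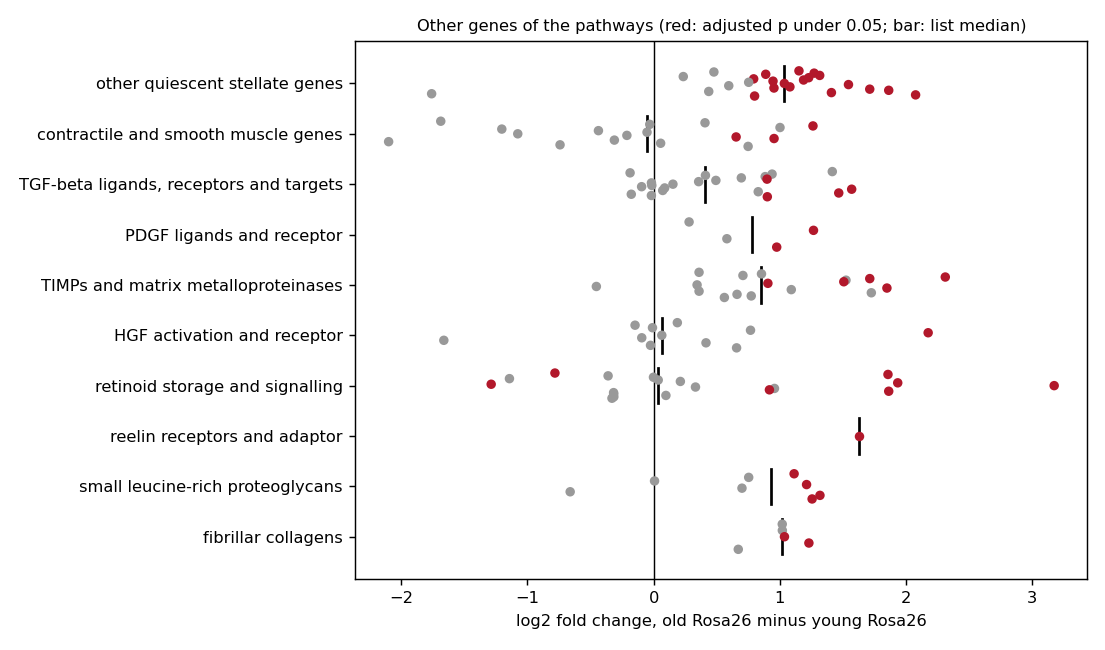
Log2 fold change between old and young Rosa26 livers (horizontal axis) of every tested gene in each of the 10 lists (dots), red for an adjusted p under 0.05, with a bar at the list's median. Most dots of the further stellate genes are red and lie to the right of 0 (median 1.04), while those of contractile genes spread on both sides (median -0.05).

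The second comparison asked whether the genes differ between knockout-labelled and old Rosa26 livers. All 9 had a fitted level below that of the old Rosa26 livers, with a median log2 difference of -0.36 against -0.02 over all genes, and 54.4% of all genes were fitted lower. None was called by edgeR, DESeq2 or limma voom, and 2 of the 9, Reln and Dcn, had an unadjusted p under 0.05 in edgeR. DESeq2 gave no p-value for Acta2, so that gene could not be called by it. Across all 13909 genes edgeR called none (0%) and 6.59% had an unadjusted p under 0.05. In 3 of the 9, Reln, Dcn and Acta2, every knockout-labelled liver was below every old Rosa26 liver, as in 3.26% of all genes. This comparison and that of age share the old Rosa26 livers and are not independent.

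Reln had 21.6, 27.2, 23.6 and 21.6 CPM in knockout-labelled replicates 1 to 4, against 33.4 to 43.6 CPM in old Rosa26 livers. Every one of these was below the old Rosa26 livers, and replicates 2 and 3 were above all young livers. The log2 difference was -0.72 (95% interval -1.07 to -0.37, unadjusted p 0.000847), with an adjusted p of 0.744, and between 0.08 and 0.995 over the alternatives. Leaving out 1 liver at a time gave -0.82 to -0.63.

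Dcn measured 153.7, 181.1, 175.9 and 143.2 CPM in knockout-labelled livers, below the 188.7 to 259.7 CPM of old Rosa26 livers and above the 91.2 to 131.7 CPM of young ones. The groups did not overlap, by a narrow margin between knockout-labelled replicate 2 and old replicate 3. The log2 difference from old Rosa26 livers was -0.39 (95% interval -0.76 to -0.03, adjusted p 0.748).

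Acta2 was even among knockout-labelled livers, at 4.07, 4.14, 4.14 and 4.20 CPM. These values lay below the 6.19 to 7.29 CPM of old Rosa26 livers and above young replicates 1 and 2. The spread fitted over all groups takes in young replicate 3, and the log2 difference of -0.73 had a 95% interval of -2.16 to 0.70 (adjusted p 0.847). With only the old Rosa26 and knockout-labelled livers in the fit it was -0.74 with an SE of 0.16 in place of 0.65 (unadjusted p 0.00151, adjusted p 0.906). Des, at 5.98, 5.97, 5.79 and 7.06 CPM, and Tagln, at 12.1, 11.5, 10.3 and 10.5 CPM, both overlapped the old Rosa26 livers, whose replicate 3 was lower than any of them. Their log2 differences were -0.36 each (SE 0.43 and 0.34).

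Pdgfrb had 13.6, 14.1, 9.23 and 11.8 CPM in knockout-labelled livers. All were below old Rosa26 replicates 1 and 2, and knockout-labelled replicate 3 was also below old Rosa26 replicate 3. Its log2 difference was -0.56, with a 95% interval from -1.15 to 0.02. Lrat had 17.9, 17.8, 20.6 and 22.5 CPM, within the range of the old Rosa26 livers, and its log2 difference of -0.09 had an interval from -0.63 to 0.44. Hgf, at 1.28, 1.66, 1.51 and 0.992 CPM, and Timp1, at 0.348, 0.8285, 0.989 and 0.642 CPM, overlapped the old Rosa26 livers and differed by -0.28 and -0.29. None of the 10 lists had a called gene in this comparison. All 5 fibrillar collagens, 22 of 23 further stellate genes and 7 of 8 proteoglycans had fitted differences below 0, with medians of -0.59, -0.32 and -0.48, and 1, 3 and 3 of them had an unadjusted p under 0.05. Sinusoidal endothelial markers summed to 156 to 231 CPM and Kupffer cell markers to 226 to 441 CPM in knockout-labelled livers, against 273 to 290 and 275 to 915 in old Rosa26 livers, and their part in these differences was not tested.

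The third comparison set the knockout-labelled livers against the young Rosa26 livers, and shares the livers of each with the comparisons above. Lrat and Dcn were called higher, 2 of 9, beside 11.6% of all genes called and 6.64% called higher. Lrat differed by 1.10 (SE 0.26, adjusted p 0.0283) and Dcn by 0.60 (SE 0.17, adjusted p 0.0445), and in both every knockout-labelled liver was above every young one, as in 21.1% of all genes. Hgf had no overlap either, with a log2 difference of 0.76 and an adjusted p of 0.105. Pdgfrb differed by 0.61 (adjusted p 0.151) and Reln by 0.41 (adjusted p 0.113), both with overlap. Acta2, at -1.80 (adjusted p 0.0856), Tagln, at -0.62 (adjusted p 0.219), and Des, at -0.29, were below 0 with young replicate 3 and stood at 0.17, -0.04 and 0.70 without it. Timp1 differed by 0.02. The calls were not stable: between 0 and 1 gene was called on leaving out 1 liver, and Dcn lost its call in every case, at adjusted p from 0.0538 to 0.166. Over all genes the share called in these fits was 11.9% without knockout-labelled replicate 1 and 0.395% to 2.99% in the others. Lrat kept its call only without young replicate 3 or knockout-labelled replicate 1.

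Of the 23 further stellate genes, 9 were higher in knockout-labelled than in young livers, led by Tcf21 (2.00), Pth1r (1.41), Lhx2 (1.21) and Colec11 (1.17). Steap4, a metalloreductase also made by hepatocytes, was lower by 2.27, at 179.5 ± 87.5 CPM (SD, n = 4) against 864 ± 142 CPM (SD, n = 3). Among matrix proteases Mmp13 (2.09) and Adamts5 (1.84) were higher, among TGF-beta genes Tgfbi (0.93), and among retinoid genes Pnpla3 (3.30) and Lpl (1.55), with Plin2 lower at -0.93. Mkl1, a coactivator of serum response factor, was the called contractile gene, at -0.79. No gene of the PDGF, HGF, reelin, proteoglycan and collagen lists was called by edgeR, with 1 of 4, 0 of 11, 1 of 1, 3 of 8 and 1 of 5 at an unadjusted p under 0.05, beside 33.3% of all genes.

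The guides were compared with 2 livers each. None of the 9 genes was called between guide 2 and guide 4 by edgeR, DESeq2 or limma voom. In edgeR all adjusted p were 1 and no unadjusted p was under 0.05, beside 0.0216% of all genes called and 4.34% with an unadjusted p under 0.05. With so few livers the intervals were wide: the log2 difference of guide 2 minus guide 4 was -0.11 for Reln (95% interval -0.60 to 0.38), 0.27 for Lrat (-0.45 to 0.99) and -0.41 for Pdgfrb (-1.18 to 0.37). Against old Rosa26 livers Reln differed by -0.78 with guide 2 (adjusted p 0.399) and by -0.67 with guide 4 (adjusted p 0.98). Pdgfrb differed by -0.78 and -0.38 in the same order, and Lrat by 0.04 and -0.23. Against the same livers 0 of the 9 were called for either guide, beside 0.0216% of all genes for guide 2 and 0% for guide 4, with 2 of the 9 at an unadjusted p under 0.05 for guide 2 (7.04% of all genes) and 1 for guide 4 (3.91%).

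For correlations of log2 CPM across the 10 livers, the genes called higher with age were taken as 1 set and the contractile genes as another. The first set was defined by its age calls, so correlation within it follows in part from that choice. Among Lrat, Reln, Pdgfrb, Hgf and Dcn the 10 pairwise Pearson correlations ran from 0.63 to 0.94. Among Acta2, Tagln and Des the 3 correlations ran from 0.79 to 0.82, and from 0.34 to 0.65 without young replicate 3. Between these sets the 15 correlations ran from -0.22 to 0.62 with that liver and from 0.14 to 0.94 without it. Without that liver, some pairs across the sets thus correlated more strongly than any pair among Acta2, Tagln and Des. Timp1 correlated with the others at -0.32 to 0.23, and at -0.14 to 0.53 without that liver. These are descriptions over livers that share age groups and library steps.

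The genes outside the set whose log2 CPM was most like the mean of the 9 were Lama2, a laminin chain (Pearson r 0.97 over 10 livers), Adamtsl2 (0.96), Dennd2a (0.96), Rbms3 (0.96) and Rab6b (0.96). Acta2 was most like Pdlim3 (0.98), Myh11 (0.96) and Actg2 (0.94), which are muscle genes. These correlations include young replicate 3, which had 35.9, 26.4 and 6.97 CPM of Acta2, Myh11 and Actg2, far above every other liver. Reln was most like Coro2b (0.98), Tiam1 (0.98) and Arrb1 (0.97). Lrat was most like Chst14 (0.98), Tmem231 (0.97) and Kifc5b (0.97). Dcn resembled Ntn1 (0.98), Pcdhgc3 (0.98) and Gucy1b3 (0.98), and Pdgfrb resembled Rbfox3 (0.97), Pcolce (0.97) and Grap (0.96). Des resembled Gsn (0.95), Sparcl1 (0.93) and Dpt (0.93), and Tagln resembled the collagen crosslinking enzyme Lox (0.90), Abi3 (0.88) and Zmiz2 (0.86). Young replicate 3 was the highest liver for Des, Tagln, Dpt and Lox too, with Dpt at 14.4 CPM against at most 7.70 elsewhere. Lox was sparse, at 0.235 to 1.08 CPM. For the sparse genes the nearest were Slc22a27 (0.98), Lcp2 (0.96) and Pigz (0.96) for Hgf and Hhipl2 (0.87), Bid (0.87) and Ltb4r1 (0.85) for Timp1.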

How the data were processed

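Polyadenylated RNA of 10 livers was sequenced as paired reads of 75 bases, per the labels. The authors deposited 1 table of raw counts per gene symbol. Per the submitters' processing notes, FastQC 0.11.8, Trim Galore 0.4.4, STAR 2.5.3a, HOMER and build mm10 were used. Their roles, the gene models counted and whether strand was used are not given in the sources used here. Counts were tested in edgeR 4.0.16 (R 4.3.3) with the quasi-likelihood test, 1 coefficient per group over all livers, TMM factors and filterByExpr (minimum count 10, minimum total 15). P-values were adjusted over 13909 genes by Benjamini-Hochberg, and a gene was called at an adjusted p under 0.05. The SE is the log2 fold change divided by the square root of F. CPM use TMM factors, and log2 CPM adds a prior count of 2. Alternatives used DESeq2 1.42.0, limma 3.58.1, other scaling or filters, and fewer livers. Counts of replicate livers differed by more than sampling noise. Positions and exon lengths are from GENCODE M21. The text names the 9 genes, Cd44, up to 5 called genes per list with the largest change, and the genes most like each, except 1 gene that is not reported here. The 9 genes and the lists were chosen with earlier results of these data known. Met, Myh11, Myl9, Cnn1, Myocd, Timp2 and Timp3 were named after their values were seen. The fit was tested on simulated data with 200 changed genes, for old against young Rosa26 and for knockout-labelled against old Rosa26. In this order it recovered 50% and 55% of log2 changes of size 1, and 89% and 88% of size 2. Of 150 and 153 calls, 11 and 10 were false.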

Additional observations from a re-analysis of the deposited data

Results flagged for a closer look

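Des in the knockout-labelled livers had 1 liver far from the others: replicate 4, at 7.06 CPM, lay above 5.79 to 5.98 CPM, and its gap was 0.849 of the group's range, past Dixon's 95% critical value for 4 livers. The 9 genes were each tested in this group, and chance flags about 1 in 20 such groups.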

How the results depend on the processing

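Of 602 alternative values for single genes over 54 results, 537 kept their direction and side of the threshold, 31 lost a call, 2 gained one and 32 changed sign. Most of the 54 results were not called, and only a called one can lose its call. With age, calls were lost in 4 of 12 alternatives for Lrat, 4 for Pdgfrb, 9 for Hgf, 1 for Dcn and 0 for Reln. For knockout-labelled against young, they were lost in 5 of 12 for Lrat and 8 for Dcn. A value that changed sign was counted only as such, even where it also gained a call. Acta2 did so for age without young replicate 3 (adjusted p 0.0302). A gene without a p-value, as Acta2 in DESeq2 for age and for knockout-labelled against old Rosa26, counted as not called. For old against young Rosa26, 5 genes were called, 2 when only those groups entered the fit and 6 with young replicate 3 and old replicate 3 both left out, a choice made after seeing the data, as were the list counts without single livers. Leaving out 1 liver gave 1 to 6. Over all genes the count of 3172 became 1192 with only those groups in the fit, and 396 to 5327 with 1 liver left out. For knockout-labelled against young, 2 genes were called, 1 with median-ratio factors and 0 to 1 with 1 liver left out, and the count of 1614 genes lay between 56 and 4223. No gene of the 9 was called against old Rosa26 or between guides under any alternative, while over all genes DESeq2 called 8 for knockout-labelled against old Rosa26, 73 between guides and 107 for guide 2 against old Rosa26. The cause was not tested.

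The age change of Acta2 was 0.85 and that of Tagln 0.57 with both doubted livers left out. Leaving out 1 liver gave -1.53 to 0.90 for Acta2, -0.27 to 1.07 for Des and -0.59 to 0.32 for Tagln. Lrat, knockout-labelled against old Rosa26, was 0.037 with guide 2 alone and -0.26 to 0.14 with 1 liver left out. Against young livers, Timp1 was -0.000133 in DESeq2 and Des 0.033 in limma voom, and leaving out 1 liver gave -2.26 to 0.17 for Acta2, -0.63 to 0.70 for Des and -0.23 to 0.42 for Timp1. Between guides it gave -0.046 to 0.24 for Des, -0.27 to 0.066 for Reln, -0.013 to 1.22 for Timp1, -0.57 to 0.033 for Hgf and -0.23 to 0.071 for Dcn. For guide 2 against old Rosa26, Timp1 was 0.053 in limma voom and -0.43 to 0.19 with 1 liver left out, and Lrat -0.13 to 0.27. For guide 4 the ranges were -0.52 to 0.064 for Tagln and -0.37 to 0.000652 for Hgf. The counts of Hgf and Timp1 limit what their values can show. No paired analysis was possible because no replicate number in the labels links animals of different groups.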

Other observations

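Reln and Lrat, which rose together with age, differed in their ratio in the knockout-labelled livers. The ratio of Reln counts to Lrat counts was 2.21, 2.16 and 1.65 in young livers and 1.96, 1.602 and 2.13 in old Rosa26 livers. It was 1.21 and 1.53 with guide 4 and 1.15 and 0.959 with guide 2, below all Rosa26 livers. The ratio of Dcn to Lrat counts was 9.53 to 14.8 in Rosa26 livers. It was 8.59 and 10.2 with guide 4 and 8.53 and 6.36 with guide 2, so only replicate 2 overlapped the Rosa26 livers. Pdgfrb to Lrat was 0.69 to 0.99 in Rosa26 livers, 0.76 and 0.79 with guide 4 and 0.45 and 0.52 with guide 2. Hgf to Lrat overlapped, at 0.061 to 0.125 and 0.044 to 0.093. Lower ratios to Lrat were thus not particular to Reln. The pair of Reln and Lrat was chosen after its values were seen and was not tested.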
